A study of Mus musculus with 4 samples.

Results

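The genes for the NMDA receptor subunits were examined in RNA sequencing libraries of mouse brain septal tissue. They are Grin1, Grin2a, Grin2b, Grin2c, Grin2d and Grin3a, and were taken from the deposited tables by gene symbol. All 6 were listed, with a single row apiece, among 15409 gene rows. Levels are given as CPM, the read count of a gene scaled to the size of its library. Each of the 6 had a mean of at least 1 CPM and was tested, as were 13900 genes in all. The seventh gene of the family, Grin3b, was not analysed here.

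The study had 4 libraries, 2 from wild-type (WT) mice and 2 from TCRb-/- mice, a knockout without T cell receptor beta and hence without conventional alpha-beta T cells. Mice of both genotypes were restrained in plastic cones for 30 minutes on 3 days and were killed 1.5 hours after the last session, so there was no group without stress. Tissue of 4 to 5 mice was pooled for a library, so a replicate is a pool and not an animal. One library of each genotype belonged to experiment 1 and the other to experiment 2, per the labels, which are referred to below as replicates 1 and 2. The sources used here do not give strain, age or sex. RNA was taken from cleared cytoplasmic lysate, and p-values measure the spread between these pools only.

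NMDA receptors are glutamate-gated channels that pass calcium and need both glutamate and a co-agonist, glycine or D-serine, to open. Each receptor holds the obligatory GluN1 subunit, encoded by Grin1, together with GluN2 subunits, encoded by Grin2a to Grin2d, or GluN3 subunits. The GluN2 subunit sets how long the channel stays open and how strongly magnesium blocks it. In the forebrain Grin2b dominates early in life and Grin2a is added as synapses mature. Grin2d is known from interneurons and from the diencephalon, and Grin2c from the cerebellum, the thalamus and astrocytes. The GluN3A subunit, encoded by Grin3a, lowers the calcium permeability of the receptors that hold it.

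The subunits share a channel core, and the bases that encode it are shown for 1 gene of each subunit class, Grin1, Grin2c and Grin3a, to make clear how far their reads can be told apart. Each line gives 69 coding bases, 5′ to 3′, from 1 GENCODE M21 transcript on GRCm38. The capitals mark the 21 bases for the most conserved stretch of the third membrane segment, which lines the channel gate.
Grin1: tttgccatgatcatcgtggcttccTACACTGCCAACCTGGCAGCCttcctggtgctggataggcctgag
Grin2c: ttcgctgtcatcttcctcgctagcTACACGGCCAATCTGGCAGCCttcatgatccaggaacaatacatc
Grin3a: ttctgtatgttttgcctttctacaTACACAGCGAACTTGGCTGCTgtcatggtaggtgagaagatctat
Each stretch lay within a single coding exon on the minus strand. In the order shown the positions were chr2:25297178-25297246, chr11:115253728-115253796 and chr4:49770449-49770517. Grin1 and Grin2c shared 44 of the 69 bases (63.8%). Grin3a shared 38 bases (55.1%) with each of them. The GluN2 genes were more alike among themselves, from 76.8% (Grin2b and Grin2c) to 89.9% (Grin2a and Grin2d) of the 69 bases.

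Over whole coding transcripts, Grin2c and Grin2d shared a run of 32 identical bases, shown because a short read within it could not be assigned to either gene.
Grin2c and Grin2d: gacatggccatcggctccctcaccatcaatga
The longest run in any pair of the 6 genes was 34 bases. No pair with Grin1 shared more than 17 bases in a row, and none with Grin3a more than 14. Overlap with other genes was a further limit on the counts. The antisense gene Grin1os covers 13.5% of the exonic bases of Grin1, and the antisense gene Gm45441 covers 9.66% of those of Grin2d. The sources used here do not say whether counting used strand. Whether reads of these antisense partners were counted for Grin1 and Grin2d is thus not known.

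The libraries held between 19988137 and 26210790 reads, so a subunit gene was read between 283 and 3138 times per library. The targeted locus was checked with Trbc2, which encodes a constant region of that receptor chain and had 0 reads in both TCRb-/- libraries and 169 and 86 reads in the WT libraries. Of 13 marker lists for neighbouring regions and other cell types, 12 were listed in full. Septal markers were present in all libraries, with all 14 genes listed and a summed level between 1069 and 1274 CPM. Pan-neuronal markers summed to between 7027 and 7739 CPM.

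Grin1, the subunit that every receptor needs, had the highest read count of the family. It stood at 127.6 CPM in replicate 1 and 103.8 CPM in replicate 2 of TCRb-/-, and at 112.5 and 97.99 CPM in the same replicates of WT. The 4 libraries thus lay close together, with each replicate 2 under both replicates 1. Grin2b was next among the GluN2 genes, at 56.9 and 39.2 CPM in TCRb-/- and 62.0 and 44.4 CPM in WT. Grin2a stood at 35.9 and 17.2 CPM in TCRb-/- and at 37.1 and 22.1 CPM in WT. For both genes the 2 libraries of experiment 2 were the low ones, and TCRb-/- replicate 2 was the lowest.

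Grin2c had the fewest reads of the GluN2 genes in each library, and Grin2d had fewer than Grin2a in experiment 1 but more in experiment 2. Grin2d had 25.4 and 23.6 CPM in TCRb-/- and 21.3 and 23.5 CPM in WT, and Grin2c had 18.8 and 14.2 CPM in TCRb-/- and 17.8 and 14.2 CPM in WT. Grin2d was nearly level across the libraries, while Grin2c was low in both libraries of experiment 2. Grin3a had 29.8 and 39.9 CPM in TCRb-/- and 34.1 and 35.1 CPM in WT, and was the one subunit gene with both libraries of experiment 2 above both of experiment 1. Exact 95% intervals of single counts were narrow at this depth, for example 15.4 to 19.1 CPM for Grin2a in TCRb-/- replicate 2 and 20.2 to 24.1 CPM in WT replicate 2. They cover counting error only.

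**Figure D1:**
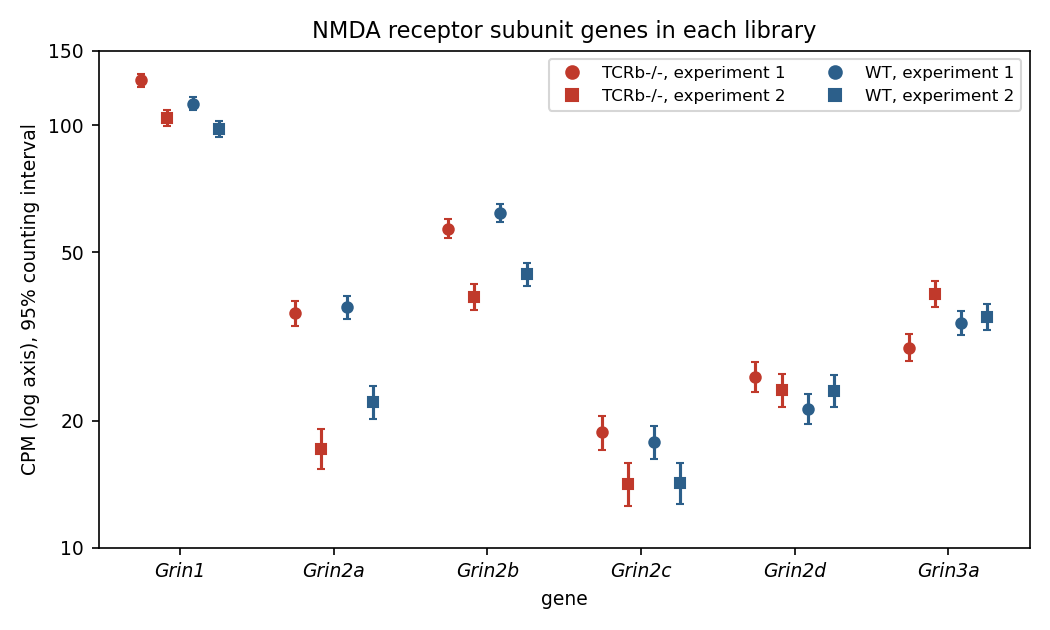
CPM of the 6 NMDA receptor subunit genes in each of the 4 libraries on a log axis, with exact 95% counting intervals; colours give the genotype and symbols the experiment. Grin2a and Grin2b are lower in both experiment 2 libraries (squares) than in both experiment 1 libraries (circles). For these 2 genes the genotypes differ less within an experiment than the experiments do within a genotype.

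Levels of different genes can be compared only per length, and the result depended on which length was used. The longest coding transcript runs from 4276 bases for Grin1 to 14634 for Grin2a and 24060 for Grin2b, most of it outside the coding sequence in the last 2. Coding lengths are more alike, from 2877 bases for Grin1 to 4446 for Grin2b. Grin1 was the highest on both scales, at 25.8 ± 3.02 CPM per kb of longest transcript and 38.4 ± 4.48 CPM per kb of coding length (SD, n = 4 libraries). It exceeded the next gene 5.58-fold on the first scale and 3.37-fold on the second, with no overlap between their ranges.

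Per kb of longest transcript the order after Grin1 was Grin3a (4.63 ± 0.554 CPM per kb), Grin2d (4.32 ± 0.305), Grin2c (3.32 ± 0.487), Grin2b (2.104 ± 0.442) and Grin2a (1.92 ± 0.681). Grin3a and Grin2d did not differ beyond their spread, nor did Grin2b and Grin2a. Per kb of coding length the order was Grin2b (11.4 ± 2.39 CPM per kb), Grin3a (10.2 ± 1.22), Grin2a (6.39 ± 2.27), Grin2d (5.91 ± 0.418) and Grin2c (4.37 ± 0.642). Here Grin2b and Grin3a overlapped, as did Grin2a and Grin2d. Grin2b was thus the fifth gene on one scale and the second on the other. Beside the first place of Grin1, the means kept Grin3a above Grin2d, Grin2a and Grin2c, Grin2d above Grin2c, and Grin2b above Grin2a on both scales.

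The genotype comparison asked whether receptor subunit expression after stress differed in mice without these T cells. None of the 6 genes passed the threshold in limma, with an adjusted p of 1.00 for each (14 alternatives gave between 0.615 and 1.00 over the 6 genes). Over all 13900 genes tested, 0 (0%) passed, and 43 (0.309%) had an unadjusted p under 0.05. None of the 6 was among them, the smallest unadjusted limma p being 0.444 for Grin1. Even Trbc2, with a log2 difference of -2.59, did not pass. The fit with genotype as the only term could thus miss large differences, and its lack of calls does not show that subunit levels were equal. With the experiment as a replicate block 2 genes (0.0144%) passed, Trbc2 among them and neither of them a subunit gene. In the block fit 5.64% of all genes and 0 of the 6 subunit genes had an unadjusted p under 0.05. The smallest limma p of a subunit gene there was 0.102 for Grin2b. The median log2 difference, TCRb-/- minus WT on the log2(CPM + 1) scale, was 0.01 over the subunit genes and 0.00 over all genes.

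The obligatory subunit gene Grin1 averaged 116 ± 16.9 CPM in TCRb-/- and 105 ± 10.3 CPM in WT (SD, n = 2 each). Its log2 difference was 0.13 (SE 0.16, 95% interval -0.27 to 0.53), at 0.18 within experiment 1 and 0.08 within experiment 2. Grin2a had a difference of -0.20 (SE 0.41, interval -1.22 to 0.82), at -0.05 and -0.35 within experiments 1 and 2. Grin2b had -0.15 (SE 0.25, interval -0.78 to 0.48), at -0.12 and -0.18. The signs were the same in both experiments for these 3 genes. None of the differences was larger than the spread between replicates, but that spread includes the difference between experiments. With the replicate block the SE was 0.072 for Grin1, 0.110 for Grin2a and 0.081 for Grin2b. The limma adjusted p in that fit was 0.862, 0.864 and 0.860.

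Grin2d, known from interneurons, was the one gene with genotypes that did not overlap (17.8% of all genes tested do not, 9.77% with TCRb-/- higher and 8.04% with TCRb-/- lower), by a margin of 23.56 against 23.53 CPM. Its log2 difference was 0.12 (SE 0.15, interval -0.26 to 0.50), at 0.24 within experiment 1 and 0.0023 within experiment 2. Grin2c had 0.03 (interval -0.50 to 0.57) and Grin3a -0.0049 (interval -0.46 to 0.45), each with opposite signs in the 2 experiments. For Grin3a they were -0.19 in experiment 1 and 0.18 in experiment 2. In all, 2 genes (Grin1 and Grin2d) were higher in TCRb-/- in both experiments, as were 27.0% of all genes, and 2 (Grin2a and Grin2b) were lower in both, as were 24.5%.

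Beside the lower Grin2a value of TCRb-/- in experiment 2, the markers of a neighbouring region differed. The 16 striatal marker genes summed to 1591 CPM in TCRb-/- replicate 2 against 3420 CPM in WT replicate 2, and to 6295 against 5631 CPM in experiment 1. In TCRb-/- replicate 2, 15 of the 16 were at their lowest, and none of the 16 was at 0 in any library. Choroid plexus markers summed to 2236 CPM in TCRb-/- against 1367 CPM in WT in experiment 1 and to 7111 against 4333 CPM in experiment 2, and 16 of 16 were higher in TCRb-/- in both. No gene of the marker lists passed by genotype in limma without the replicate block. With it, the choroid plexus gene Ttr (log2 difference 0.85) and Trbc2 passed, each with a limma adjusted p of 0.0335. The part of these tissues in the subunit differences was not tested. In pooled tissue, fewer cells of a type and less RNA per cell cannot be told apart. Grin2b lies on chromosome 6, as does Trbc2, 94.2 Mb away.

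**Figure D2:**
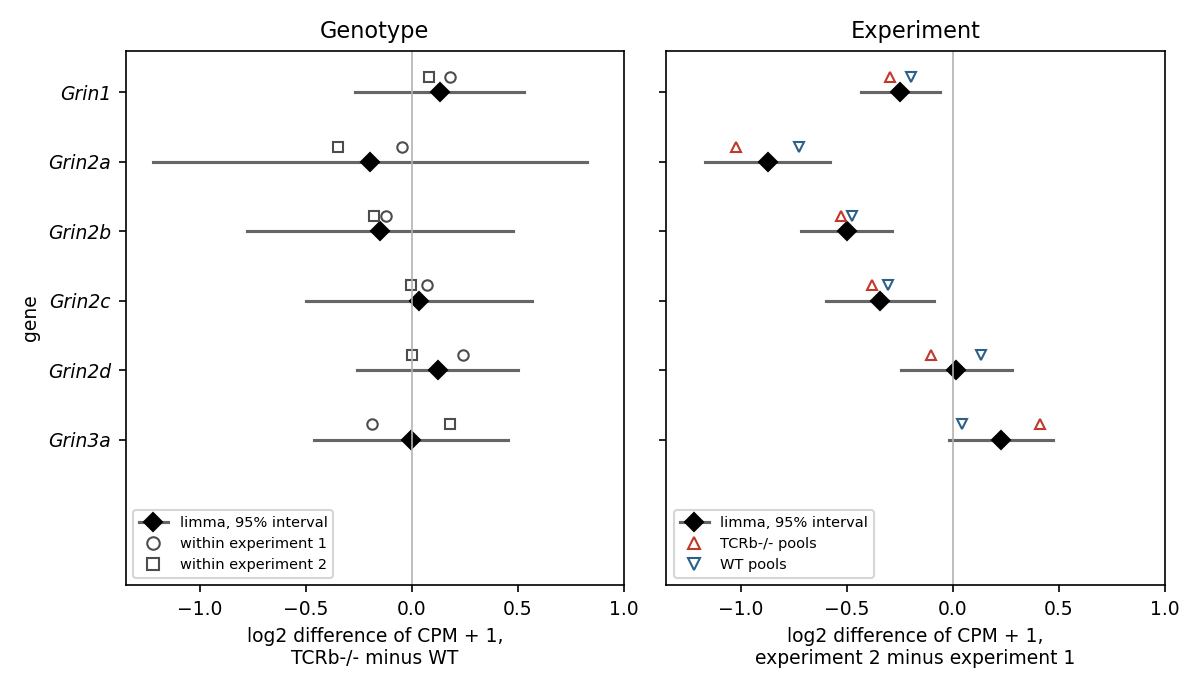
Log2 differences of CPM + 1 for each subunit gene, by genotype (left) and by experiment (right); diamonds and lines are limma estimates with 95% intervals and open symbols are the differences within each experiment or genotype. All genotype intervals include 0, while the experiment intervals of Grin1, Grin2a, Grin2b and Grin2c lie wholly below it, of which Grin2a and Grin2b passed the adjusted threshold.

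The pools of the 2 experiments, each with both genotypes, were compared next to see how far the subunit genes vary between pools. Grin2a and Grin2b were lower in experiment 2 than in experiment 1, and Grin1, Grin2c, Grin2d and Grin3a did not pass the threshold. Called lower were thus 2 of the 6 genes, against 14.7% of all genes tested, and called higher 0, against 8.96% (23.7% in either direction). All 6 have a longest transcript over 4 kb. In the 3 length classes above 4 kb, between 26.3% and 30.6% of genes were called lower. With the replicate block, 3 were called (Grin1 added), against 24.7% of all genes. The median log2 difference, experiment 2 minus experiment 1, was -0.29 over the subunit genes and -0.03 over all genes. The sources used here do not say what else differed between the experiments.

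Grin2a, the subunit of mature synapses, fell furthest. Its mean was 36.5 ± 0.882 CPM in experiment 1 and 19.6 ± 3.49 CPM in experiment 2 (SD, n = 2 each). The log2 difference was -0.87 (SE 0.13, limma adjusted p 0.00653), at -1.02 between the TCRb-/- pools and -0.72 between the WT pools. It passed the threshold in all 14 alternatives, with adjusted p-values from 1.17e-05 to 0.0465. Of all genes tested, 1.96% had a lower difference.

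Grin2b fell from 59.5 ± 3.63 to 41.8 ± 3.70 CPM. Its log2 difference was -0.50 (SE 0.09, limma adjusted p 0.0108), at -0.53 and -0.47 between the TCRb-/- and the WT pools. The call was lost in 4 of 14 alternatives, over which the limma adjusted p ran from 0.00106 to 0.112. One of these left out WT replicate 1 (difference -0.44, limma adjusted p 0.0513) and another dropped the mean-variance trend (limma adjusted p 0.0550).

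Grin1 had 120 ± 10.7 and 101 ± 4.08 CPM in experiments 1 and 2, a log2 difference of -0.25 (SE 0.08) with a limma adjusted p of 0.0603. With genotype as a further term, which is the replicate block of this comparison, the adjusted p was 0.0413 in limma, and over 14 alternatives it ran from 0.0413 to 0.466. Grin2c had a difference of -0.34 (SE 0.11, limma adjusted p 0.0567), at -0.38 and -0.30 between the TCRb-/- and WT pools. For Grin1 and Grin2c the experiments did not overlap either. Counting all 4 of these genes, the experiments did not overlap with experiment 2 lower in 4 of 6 subunit genes, against 37.2% of all genes (67.3% in either direction).

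Grin2d and Grin3a went the other way or stayed level. Grin2d had a log2 difference of 0.02 (SE 0.11, interval -0.24 to 0.28), made up of -0.10 between the TCRb-/- pools and 0.14 between the WT pools. Grin3a had 0.23 (SE 0.11, limma adjusted p 0.155), at 0.41 between the TCRb-/- pools and 0.04 between the WT pools. Its experiments did not overlap, with experiment 2 higher, as in 30.1% of all genes.

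Transcript length moved with the difference between experiments and bears on these genes, since Grin2b and Grin2a have very long transcripts. Across 13544 genes with a known length, which are not independent replicates, the difference had a Spearman rho of -0.471 with length, longer genes being lower in experiment 2. The median difference was 0.17 for the 3270 genes with a longest transcript of up to 2 kb and -0.23 for the 349 genes over 10 kb, with quartiles of -0.42 and -0.07 among the latter. Called lower were 2.66% of genes up to 2 kb and 10.5% from 2 to 4 kb. The share was 26.3% from 4 to 6 kb, 30.6% from 6 to 10 kb and 28.9% over 10 kb. Grin2a, at -0.87, was below the lower quartile of genes over 10 kb and Grin2b, at -0.50, was slightly below it. Grin3a, at 7.49 kb, was above the upper quartile of -0.04 for genes from 6 to 10 kb.

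A fit with the length trend removed from each library was added after seeing the data. In it, Grin2a kept a difference of -0.62 (limma adjusted p 0.0194), Grin2b had -0.23 and lost its call (limma adjusted p 0.112), and Grin1 had -0.10. Grin3a, higher in experiment 2, had a difference of 0.46 in that fit and passed the threshold (limma adjusted p 0.0300, between 0.0215 and 0.529 over 14 alternatives). Grin2d had 0.23 (limma adjusted p 0.219). The fall of Grin2a was thus present with and without the length trend, while the calls of Grin2b and Grin3a depended on it.

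**Figure D3:**
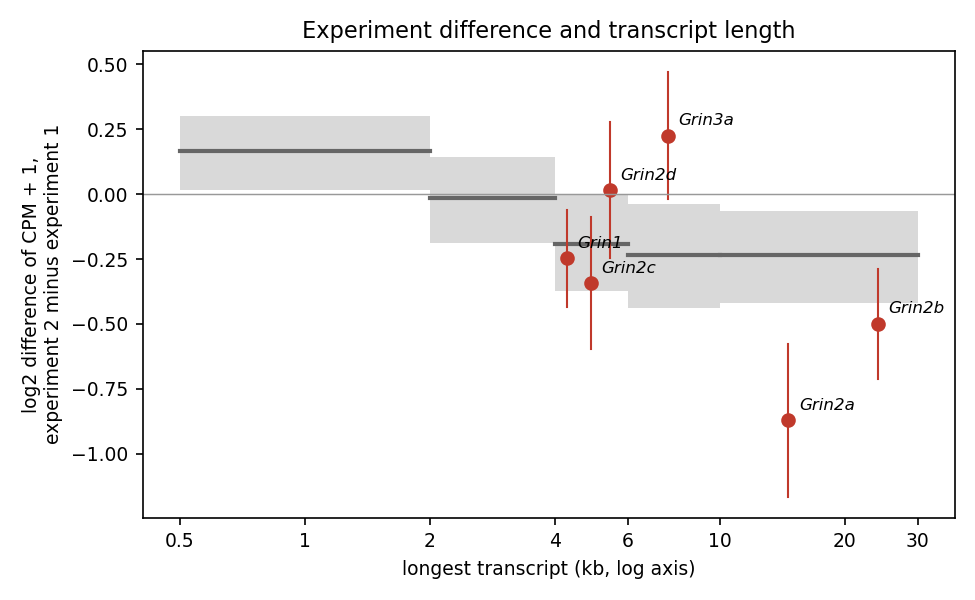
Log2 difference between experiments against the length of the longest transcript (log axis); grey bars give the median and shaded bands the quartiles of all tested genes in 5 length classes, and red points the subunit genes with limma 95% intervals. Grin2a lies below the band of genes over 10 kb and Grin3a above the band of genes from 6 to 10 kb.

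Markers of neighbouring regions moved with the experiments as well. Striatal markers summed to 6295 and 5631 CPM in experiment 1 and to 1591 and 3420 CPM in experiment 2, and 15 of 16 were called lower, where 14.7% of all genes were called lower and 8.96% higher. The 12 markers of cortex and hippocampus summed to 465 and 525 CPM in experiment 1 and to 209 and 212 CPM in experiment 2, with 8 called lower. Thalamic markers summed to 763 and 751 CPM in experiment 1 and to 1803 and 1230 CPM in experiment 2, with 6 of 10 called higher. Choroid plexus markers summed to 2236 and 1367 CPM against 7111 and 4333 CPM, with 15 of 16 called higher. No gene of these 4 lists was at 0 in any library. Pan-neuronal markers were at 7027 and 7739 CPM in experiment 1 and at 7296 and 7359 CPM in experiment 2, and septal markers at 1274 and 1182 against 1069 and 1167 CPM. Of the pan-neuronal genes 2 of 10 were called higher and 3 lower, and of the septal genes 3 of 14 higher and 2 lower. How far these tissues contribute to the subunit differences was not tested.

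Receptor subtype depends on the mix of GluN2 subunits, so each GluN2 gene was also expressed as a share of the length-scaled sum of the 4, a measure that does not depend on library scaling. Per kb of longest transcript, the Grin2a share was 18.4% and 11.7% in TCRb-/- replicates 1 and 2 and 20.01% and 14.3% in WT. The Grin2b share was 17.8% and 16.2% in TCRb-/- and 20.3% and 17.4% in WT. On this scale both were lower in each library of experiment 2 than in each of experiment 1. Per kb of coding length the Grin2b share was 39.5% and 39.2% in TCRb-/- and 42.9% and 40.3% in WT, so that the experiments overlapped, with a difference of -1.40 points in place of -2.22. Per kb of longest transcript the Grin2d share was 35.1% and 43.2% in TCRb-/- and 31.0% and 40.9% in WT. It was thus higher in experiment 2. On that scale Grin2c held between 27.4% and 28.8% in every library.

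Between experiments the Grin2a share fell by 6.24 percentage points and the Grin2d share was 9.04 points higher. Each had an exact two-sided permutation p of 0.333, the smallest that 4 libraries allow. The same 2 shares differed by -6.73 and 7.06 points per kb of coding length. By genotype, the Grin2d share per kb of longest transcript averaged 39.2% in TCRb-/- and 35.9% in WT (exact permutation p 0.667). It was higher in TCRb-/- by 4.10 points in experiment 1 and 2.36 points in experiment 2. The Grin2a share was 15.0% and 17.1% (exact permutation p 0.667), lower in TCRb-/- in both experiments. Neither was larger than the spread between replicates, which includes the difference between experiments, and the permutation did not keep the experiments apart. On the mean, the direction turned for both shares without TCRb-/- replicate 2 (1.27 points for Grin2a and -0.85 for Grin2d). It also turned without WT replicate 1 (0.79 and -1.73). Leaving out a library unbalances the experiments, between which both shares differed, so these turns cannot be told apart from that difference.

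**Figure D4:**
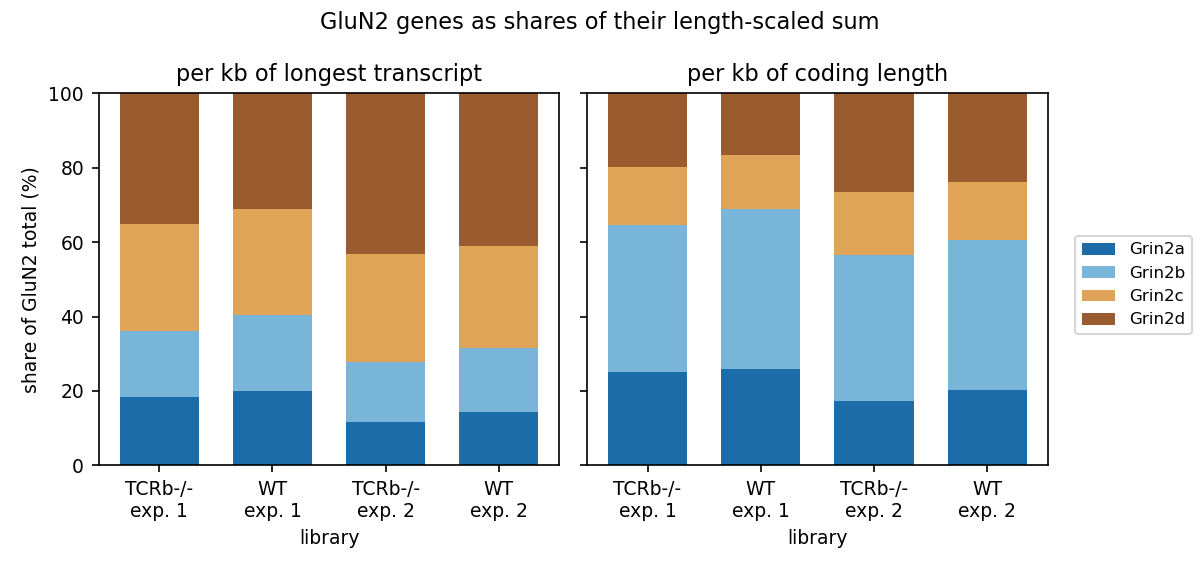
Share of each GluN2 gene in the sum of the 4 in each library, with CPM divided by the longest transcript (left) or by the coding length (right). On both scales the Grin2a share is smaller and the Grin2d share larger in experiment 2, and the levels of the shares differ between scales.

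The balance of Grin2a to Grin2b is often used to describe synaptic maturation, and it needs no length to be compared between libraries. Of the reads of both genes, Grin2a took 38.7% (882 of 2281 reads, exact 95% interval 36.7% to 40.7%) in TCRb-/- replicate 1 and 30.5% (343 of 1126, 27.8% to 33.2%) in TCRb-/- replicate 2. In WT it took 37.4% (973 of 2599, 35.6% to 39.3%) in replicate 1 and 33.2% (494 of 1487, 30.8% to 35.7%) in replicate 2. The share was lower in experiment 2 in both genotypes. These intervals cover counting error only, so they compare single libraries and not groups. The intervals of the replicates lay apart in TCRb-/- and overlapped slightly in WT. Grin1 relative to the summed GluN2 genes, per kb of longest transcript, was 2.24 and 2.42 in TCRb-/- and 2.08 and 2.16 in WT. Per kb of coding length it was 1.37 and 1.61 against 1.20 and 1.37. On both scales, which rest on the same reads, TCRb-/- was above WT within each experiment. Experiment 2 was likewise above experiment 1 within each genotype, and no test of this ratio was run.

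The subunit genes were compared with each other by the root-mean-square difference between their log2(CPM + 1) profiles over the 4 libraries, each centred on its mean. The nearest pair was Grin1 and Grin2c (0.0685) and the farthest Grin2a and Grin3a (0.582). Among the 9809 other genes at a mean level of 10 CPM or more, the nearest to Grin1 were Emc3 and Hdac5, and to Grin2b Tmem168 and S100pbp. Nearest to Grin2c were Znfx1 and Brap, to Grin2d P4hb and Creld2, and to Grin3a Idh1 and Lmna. Their differences ran from 0.00386 to 0.0112. Grin2a had the most distant neighbours, Sort1 (0.0169) and Mcf2l (0.0262). Only 118 genes (1.20%) lay within 0.1 of Grin2a, against 661 (6.74%) for Grin2b and between 1443 and 1865 for each of the other 4. With 4 libraries, such closeness is a description and names no shared function.

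The promoters of Grin1 and Grin2c are shown because these 2 genes had the nearest profiles of the family. The sequences are RefSeq's on GRCm38.p6, from 250 bases before to 50 bases after the gene start, and 3 of the 6 subunit genes (Grin1, Grin2c and Grin2d) were matched. Capitals mark GC boxes, the motif GGGCGG, searched on both strands.
Grin1, chr2:25319138-25319437, minus strand: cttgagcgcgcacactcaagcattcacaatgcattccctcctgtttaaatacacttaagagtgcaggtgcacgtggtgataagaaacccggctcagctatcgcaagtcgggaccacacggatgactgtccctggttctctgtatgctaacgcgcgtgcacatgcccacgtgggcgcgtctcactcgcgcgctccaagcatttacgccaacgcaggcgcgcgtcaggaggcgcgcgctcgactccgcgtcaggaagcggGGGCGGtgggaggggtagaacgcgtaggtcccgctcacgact
Grin2c, chr11:115267194-115267493, minus strand: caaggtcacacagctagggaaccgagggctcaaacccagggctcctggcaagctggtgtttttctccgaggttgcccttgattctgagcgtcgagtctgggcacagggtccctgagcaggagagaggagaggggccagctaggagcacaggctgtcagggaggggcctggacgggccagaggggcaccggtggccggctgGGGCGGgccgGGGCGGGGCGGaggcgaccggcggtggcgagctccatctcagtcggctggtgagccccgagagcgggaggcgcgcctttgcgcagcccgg
Grin1 held 1 GC box and Grin2c held 3, of which 2 overlap by a base. Of 32851 promoters of the same length, 35.7% held at least 1. The Grin2d promoter, at chr7:45866632-45866931, held 0. That window lies inside the GENCODE M21 gene model, which begins at 45878378 on the minus strand. The Grin2d values thus describe the RefSeq start only. Grin1 had 33 CG pairs, a number reached by 8.56% of promoters, Grin2c 22 and Grin2d 12, with a median of 7 over all promoters. A match is a description and not a binding site.

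Genes that work with the receptor were described from 4 lists. By genotype, 0 genes of each list passed in limma, with or without the replicate block. The medians lay between -0.06 for scaffolds and signalling partners and 0.01 for co-agonist supply, beside 0.00 over all genes. By experiment, the scaffold and signalling list had 19 of 36 genes called lower and 0 higher, against 14.7% and 8.96% of all genes. Its median was -0.36 beside -0.03 over all genes. Genes with long transcripts were called lower more often, between 26.3% and 30.6% in the classes over 4 kb. The lengths of the list genes were not compared. The part of length and of the neighbouring regions in these lists was not tested.

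Of the scaffolds that anchor the receptor, the membrane-associated guanylate kinases Dlg1, Dlg2 and Dlg3 were called lower in experiment 2. Dlg4, which encodes PSD-95, was not, at 48.5 and 42.9 CPM in TCRb-/- and 43.9 CPM in both WT libraries (log2 difference between experiments -0.09). Dlg1 had 77.4 and 40.5 CPM in the TCRb-/- libraries and 73.6 and 51.2 CPM in the WT ones, with a difference between experiments of -0.72 on the log2 scale (limma adjusted p 0.00733). Dlgap1, Dlgap2, Dlgap3, Dlgap4 and Shank2, which link them to the cytoskeleton, were also called lower. So was Homer1, which had a difference of -1.06 between experiments and the lowest difference of its list by genotype, -0.41 (limma adjusted p 1.00). Homer3, another scaffold, had the highest by genotype, 0.30 (limma adjusted p 1.00).

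Among the signalling partners, the auxiliary subunit gene Neto1 had the lowest difference of the list. It had 48.7 and 17.5 CPM in TCRb-/- and 43.6 and 22.6 CPM in WT, a log2 difference between experiments of -1.17 (limma adjusted p 0.00415). Camk2a and Camk2b, the kinase subunits that bind the tail of GluN2B, were called lower at -0.68 and -0.56. Actn2, Akap5, Ptk2b, Prkcb, Ppp3ca, Ppp3r1 and Cdk5r1, which encode an actin linker, a kinase anchor, kinases, calcineurin subunits and a kinase activator, were called lower as well. The highest in the list was Camk2g, at 0.27 (limma adjusted p 0.0821).

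In the other lists fewer genes were called between experiments, beside the same 14.7% lower and 8.96% higher over all genes. Of 10 genes for delivery and endocytosis, 2 were called lower, a share near that of all genes. They were Kif17 (-0.77), the kinesin known for carrying GluN2B vesicles, and Lin7c (-0.39). Ap2m1 was highest at 0.18 (limma adjusted p 0.0906). By genotype, that list ran from Exoc4 at -0.28 to Ap2m1 at 0.05 (limma adjusted p 1.00 for both). Of 6 genes for glutamate uptake and conversion, Slc1a1 (-0.39) and Slc1a2 (-0.32), both glutamate transporters, were called lower, and Glul was highest at 0.05. By genotype the highest was Slc1a3, which encodes a glial glutamate transporter, at 0.13 (limma adjusted p 1.00).

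In co-agonist supply, 2 of 13 genes were called lower and 1 higher, shares near those of all genes (14.7% and 8.96%). Of the 15 genes of the list 13 were listed, Dao and Slc6a5 not being analysed here. Gldc, which breaks down glycine, and Srr, which makes D-serine, were called lower in experiment 2, at -0.75 and -0.40. Slc7a10, a transporter of D-serine and glycine, was called higher at 0.60 (limma adjusted p 0.0214), with 32.5 and 53.8 CPM in TCRb-/- and 28.2 and 40.3 CPM in WT. By genotype the list ran from Shmt1 at -0.13 to Amt at 0.49 (limma adjusted p 1.00 for both).

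**Figure D5:**
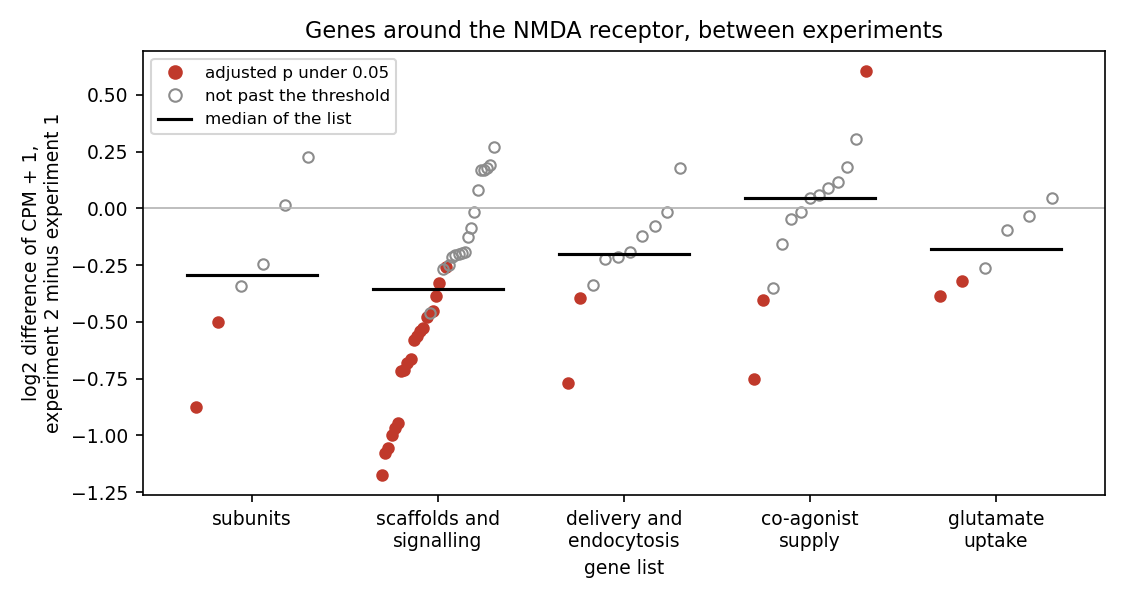
Log2 difference between experiments for the tested genes of the subunit list and of the 4 lists around the receptor; filled red points passed the adjusted threshold in limma and black lines are list medians. In the list of scaffolds and signalling partners 19 of 36 genes are called lower, and Slc7a10 in the co-agonist list is the one gene called higher.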

How the data were processed

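RNA of mouse septal tissue was sequenced in 4 libraries, and every file listed symbols beside the values of 1 library. Per the submitters' processing notes, the tools were HISAT2 2.1.0, SAMtools 1.3, HTSeq 0.9.1, R 4.0.5 and limma 3.46.0 and the build was mm10. The deposited values are log2 CPM, and the values show that the authors used offsets of 0.5 reads and 1 read of library size. Reads worked back from them were whole for 100% of values (tolerance 0.001 reads), with library totals of 24585868 and 19988137 (TCRb-/-) and 26210790 and 22358674 (WT). Of 15426 rows, 17 spike-in rows and 12 gene rows that share a symbol were left out.

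Levels were taken as log2(CPM + 1), where changes of low genes come out too small, and the 13900 genes at a mean of 1 CPM or more were tested. limma 3.58.1 in R 4.3.3 was used (trend, two-sided, Benjamini-Hochberg over all genes, threshold 0.05), with genotype or experiment as the only term. The genotype fit was first run on simulated data. Those held no difference between experiments, unlike these libraries, so they do not show how the fit performs here. A count-based test was not run. Per the labels, equal replicate numbers mark a shared experiment, which pairs the libraries (deviations from genotype means correlated at 0.719 across genes), and the fit with it as a block was an alternative. Replicates differed by far more than counting noise (chi-square per degree of freedom 30.3 or more). Gene models and lengths came from GENCODE M21 (GRCm38). Python 3.11.15, scipy 1.17.1 and biopython 1.88 were used. The members, gene lists and tests were chosen with earlier results of these data known. Named were all subunit genes, the highest, lowest and called genes of each list, and the 2 nearest genes by profile. Dlg4 was added after its values were seen. The member with the lowest difference by genotype in the glutamate uptake list, and some sequences, are not reported here.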

Additional observations from a re-analysis of the deposited data

Results flagged for a closer look

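For 3 subunit genes the direction of a difference was opposite in the parts of the design, and the difference between those parts was not tested, since each part holds 1 library on either side. Values are log2 differences of CPM + 1. Grin3a was lower in TCRb-/- than in WT in experiment 1 (-0.19) and higher in experiment 2 (0.18). Grin2c was higher in TCRb-/- in experiment 1 (0.073) and all but equal in experiment 2 (-0.0061). Grin2d was lower in experiment 2 than in experiment 1 between the TCRb-/- pools (-0.10) and higher between the WT pools (0.14).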

How the results depend on the processing

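The fits with the length trend removed were chosen after seeing the data. With all libraries, the subunit genes by genotype kept their direction and their side of the threshold in 58 of 60 values, and by experiment in 53 of 60. The replicate block, the filters and the mean-variance trend cannot change a difference itself, so part of the kept directions was fixed in advance. The exceptions by genotype were Grin3a without the length trend, at 0.028 with and without the replicate block, where it had been near 0. By experiment, Grin1 passed with the replicate block (-0.25), Grin2c with a filter at 10 CPM (-0.34) and Grin3a without the length trend (0.46, also with the block). Grin2b lost its call without a mean-variance trend (-0.50) and without the length trend (-0.23, also with the block). Apart from these, the block changed no call of a subunit gene.

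The count of genes by genotype went from 0 to 2 with the replicate block and to 4 with the block and no length trend. The count between experiments went from 3293 to 630 with no mean-variance trend, to 1704 with no length trend (800 higher and 904 lower, against 1245 and 2048) and to 2105 with the block and no length trend. With quantile normalization 1637 were higher and 1597 lower. The change of the Grin2c share between experiments turned from -0.58 points to 1.07 per coding length and to 1.07 as a share of reads. The causes were not tested.

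Leaving out 1 library leaves 1 in a group, assumed to vary like the other group, and unbalances the experiments. The direction of the subunit genes by genotype then turned in 9 of 24 values. Counts then ran from 0 to 47 genes by genotype (47 without TCRb-/- replicate 1, 1 without TCRb-/- replicate 2) and from 1417 to 3422 between experiments (1417 without TCRb-/- replicate 1, 1883 without TCRb-/- replicate 2, 1647 without WT replicate 1). Differences by genotype ran from -0.017 to 0.28 for Grin1, from -0.71 to 0.31 for Grin2a, from -0.41 to 0.11 for Grin2b, from -0.16 to 0.22 for Grin2c, from 0.05 to 0.19 for Grin2d and from -0.21 to 0.20 for Grin3a. By experiment they ran from -0.34 to -0.16 for Grin1 (past the threshold without WT replicate 1), from -1.05 to -0.70 for Grin2a, from -0.59 to -0.41 for Grin2b (the call lost without WT replicate 1), from -0.10 to 0.14 for Grin2d (reversed without WT replicate 1) and from 0.13 to 0.32 for Grin3a. Shares by genotype ran from -5.45 to 1.27 points for Grin2a and from -1.73 to 8.18 for Grin2d, and the Grin2c share between experiments from -1.28 to 0.12. With 2 libraries per group, the printed genotype intervals are wide and do not exclude differences of the sizes within them. They come from the fit with genotype as the only term, where the difference between experiments adds to the spread. Across all genes, replicates differed by far more than counting error, but this did not hold for every subunit gene and pair of pools. The counting intervals of Grin3a, for example, were 31.9 to 36.4 CPM in WT replicate 1 and 32.7 to 37.7 CPM in WT replicate 2.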
